A study of Caenorhabditis elegans with 8 samples.

Results

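C-type lectin genes of Caenorhabditis elegans were followed from whole-animal lysates into the RNA bound by each of the oocyte proteins OMA-1 and LIN-41. The members were all genes of the authors' deposited table whose symbol starts with clec-, 124 of 16031 genes. The rule itself used no measured value, but the table held only genes with a mean scaled read number (baseMean) above 1, so genes below that could not be members. The table listed 120 of them as protein coding and 4 as pseudogenes. The Ensembl annotation of the same build, WBcel235, held 240 genes with a clec- symbol, and 116 of those were not analysed here. Membership rests on the symbol, since no protein sequence was used here.

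The series held 8 RNA-seq libraries from 2 strains, 2 immunoprecipitates (IPs) and 2 lysates of each. One strain carried fog-1(q253ts), oma-1(zu405te33) and the transgene tnIs17, in which the oma-1 promoter drives OMA-1 tagged with S, TEV and GFP beside an unc-119(+) rescue gene. The other carried fog-1(q253ts) and lin-41(tn1541), in which GFP, TEV and S tags were placed at the endogenous lin-41 gene. Both strains thus shared the temperature-sensitive fog-1 allele, which turns the germ line female at 25 °C, and all animals were young adults taken after about 48 h on bacterial food at that temperature. The same mixture of antibodies, 12A6 and 4C9, was used for every IP, and none of the 8 libraries was labelled as a mock or untagged control. Each strain gave 1 lysate depleted of ribosomal RNA, and the table set both IPs against these depleted lysates pooled over the strains. It gave no value for a single library, so no value below has an SD, and depth per library is unknown. Strain names in the labels are not the same for all samples of a genotype, and 1 strain for each is assumed.

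C-type lectin-like proteins share a fold named for animal lectins that bind sugars with the help of calcium. In C. elegans the family is large, many members carry a signal for secretion, and a number of them are made in the intestine or rise when the animal meets a pathogen. OMA-1 and LIN-41 are RNA-binding proteins of growing oocytes that control the translation of maternal mRNAs. OMA-1 has zinc fingers of the CCCH type, and LIN-41 belongs to the TRIM-NHL family.

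Markers of the intestine and of oocytes were present in the lysates, and the sperm markers with a row were scarce. The 10 intestine markers ranged from 1.24 to 1830 FPKM and the 10 germ line and oocyte markers from 103 to 1261 FPKM. The yolk protein gene vit-2, made in the intestine, stood at 1286 FPKM (a level scaled to gene length and library size), and the yolk receptor gene rme-2 of oocytes at 396 FPKM in the authors' deposited table. The sperm genes spe-9 and spe-38 stood at 0.13 and 0.08 FPKM. The other 3 sperm markers had no row in the table.

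Most clec genes were scarce, and a single one made up almost all of the family's signal in the IPs. The median pooled level over the 124 members was 0.56 FPKM in the lysates, against 3.04 FPKM over all genes. Of the members 44 (35.5%) reached 1 FPKM in the lysates, against 65.8% of all genes, and 80 stayed below it. Only 14 reached 10 FPKM there and 5 reached 100 FPKM. In bulk lysates, fewer cells of a type and less RNA per cell cannot be told apart. The table's baseMean, a scaled mean number of reads per gene over libraries, was at least 10 for 49 members and lower for 75, and for those 75 the tests below have little to work with.

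The member with the highest level in each pool was clec-87 (WBGene00007709, I 10184462 to 10185520, minus strand, in WBcel235). Its pooled level was 1006 FPKM in the lysates, 6930 FPKM with OMA-1 and 14957 FPKM with LIN-41 in the authors' deposited table. Its level rose from 20th of all genes in the lysates to 3rd in the OMA-1 IPs and 2nd in the LIN-41 IPs. It held 44.8% of the family's summed FPKM in the lysates, 89.2% in the OMA-1 IPs and 92.8% in the LIN-41 IPs. Without clec-87 the summed FPKM of the family was 1241 in the lysates, 839 in the OMA-1 IPs and 1154 in the LIN-41 IPs. The FPKM totals over all genes differed between the pools, so such sums are not on one scale. As a share of each pool's total, the family without clec-87 made up 0.315%, 0.0834% and 0.151%.

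Next in the lysates came clec-63 at 299 FPKM, clec-88 at 249 FPKM, clec-91 at 137 FPKM and clec-50 at 107 FPKM, in the authors' pooled values. They were followed by clec-41 (80.9 FPKM), clec-65 (51.3 FPKM), clec-1 (41.5 FPKM), clec-85 (39.8 FPKM) and clec-150 (33.0 FPKM). These 9 genes parted ways in the IPs. The pooled levels of clec-63, clec-50, clec-41, clec-65, clec-1 and clec-150 were below the lysate level in both IPs, while clec-88 and clec-91 were above it only in the LIN-41 IPs and clec-85 only in the OMA-1 IPs.

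**Figure D1:**
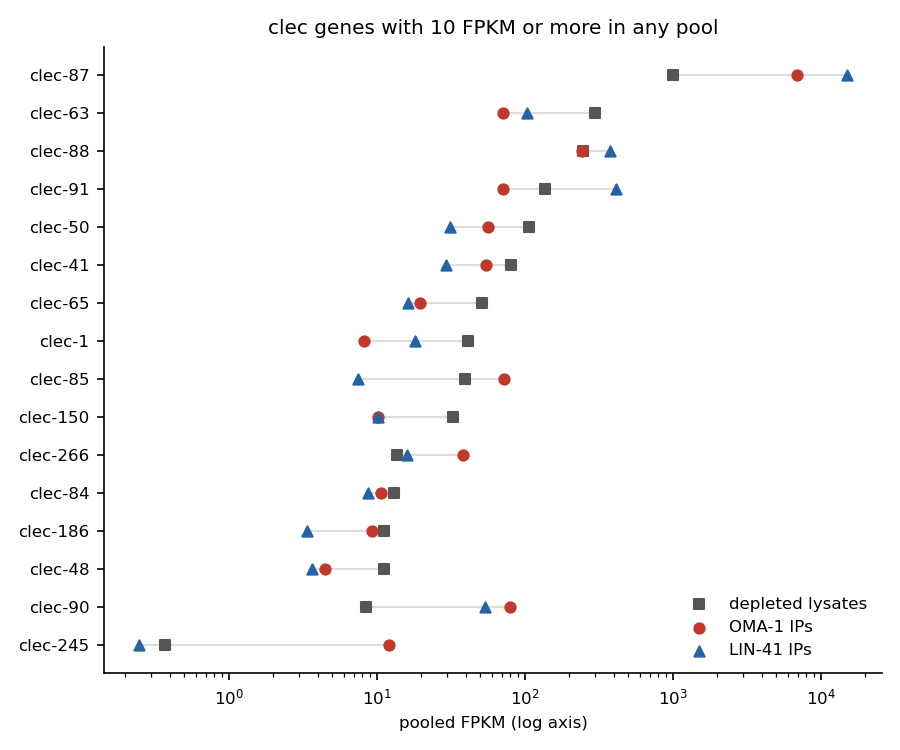
Pooled FPKM (log axis) of the 16 clec genes with 10 FPKM or more in any pool, in depleted lysates (squares), OMA-1 IPs (circles) and LIN-41 IPs (triangles), ordered by lysate level; each point is 1 pooled value with no replicate error. The points of clec-87 lie to the right of its lysate value of 1006 FPKM in both IPs, and clec-245 moves from 0.37 to 12.2 FPKM with OMA-1 only.

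The first question was which of these transcripts came down with OMA-1. Of 118 members tested, 6 were called higher in the OMA-1 IPs in the authors' deposited table at an adjusted p below 0.05, a one-sided test with Benjamini-Hochberg adjustment, against a background of 28.4% of all genes tested. An approximate one-sided test on the standard error (SE) implied by the deposited values called 23 members lower (19.5% of those tested), near the background of 18.8%. The median log2 ratio of the members was -0.60, and that of all genes tested was -0.09. The place of 0 follows from how the libraries were scaled. Setting the FPKM totals of the pools equal shifts every OMA-1 log2 ratio by -1.33 and every LIN-41 one by -0.95.

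The 6 genes called higher with OMA-1 ranged from one hardly seen in the lysates to the most abundant member. The level of clec-245 (WBGene00007851, V 18186063 to 18188428, minus strand) was 0.37 FPKM in the lysates, 12.2 FPKM with OMA-1 and 0.25 FPKM with LIN-41. Its log2 ratio with OMA-1 was 4.77 in the authors' deposited table, with an implied SE of 0.624 and an adjusted p of 6.39e-14. The gene has no exon that overlaps another gene in the annotation, and its baseMean was 25.5, so the ratio rests on few reads. Its ratio in an OMA-1 IP from earlier work was 3.50 on the log2 scale, per the authors' deposited table.

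The level of clec-90 (WBGene00019009, I 4844908 to 4847972) was 8.50 FPKM in the lysates, 79.7 FPKM with OMA-1 and 53.6 FPKM with LIN-41, and it was called in both IPs. Its log2 ratios in the authors' deposited table were 3.21 with OMA-1 (adjusted p 3.48e-69) and 2.64 with LIN-41 (adjusted p 2.62e-45). Of the 1469 exon bases of clec-90, 59 are shared with its neighbour glo-2 on the same strand, and the authors' deposited table gave glo-2 similar IP levels, 80.3 and 53.99 FPKM. For clec-87 the log2 ratio was 2.78 with OMA-1 and 3.89 with LIN-41 in the authors' deposited table. Of its 960 exon bases 138 overlap iars-2 on the other strand, whose log2 ratio was -0.98 with OMA-1 and -1.002 with LIN-41 in the authors' deposited table.

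The remaining 3 calls with OMA-1 were smaller. Levels of clec-238 were 0.46 FPKM in the lysates, 2.46 FPKM with OMA-1 and 1.30 FPKM with LIN-41, and its OMA-1 log2 ratio was 2.09 (adjusted p 0.0411) in the authors' deposited table. Its baseMean was 8.77, and the call was lost at a threshold of 0.01, among genes with a baseMean of at least 10 and with equal totals. The level of clec-266 was 13.7 FPKM in the lysates, 38.6 FPKM with OMA-1 and 16.2 FPKM with LIN-41. Its log2 ratio with OMA-1 was 1.48 in the authors' deposited table, with an adjusted p of 9.09e-15, and was 0.15, without a call, with equal totals. The last was clec-85 (WBGene00021872, IV 2850886 to 2855456), a gene known from infection responses of the intestine, at 39.8 FPKM in the lysates and 73.0 FPKM with OMA-1. Its log2 ratio was 0.87 with an adjusted p of 6.94e-05 in the authors' deposited table, and it turned to -0.47 with equal totals and lost its call with quantile normalization (0.03). In the earlier OMA-1 IP the log2 ratio of clec-85 was -0.62, per the authors' deposited table, while the other 5 genes had positive earlier ratios.

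**Figure D2:**
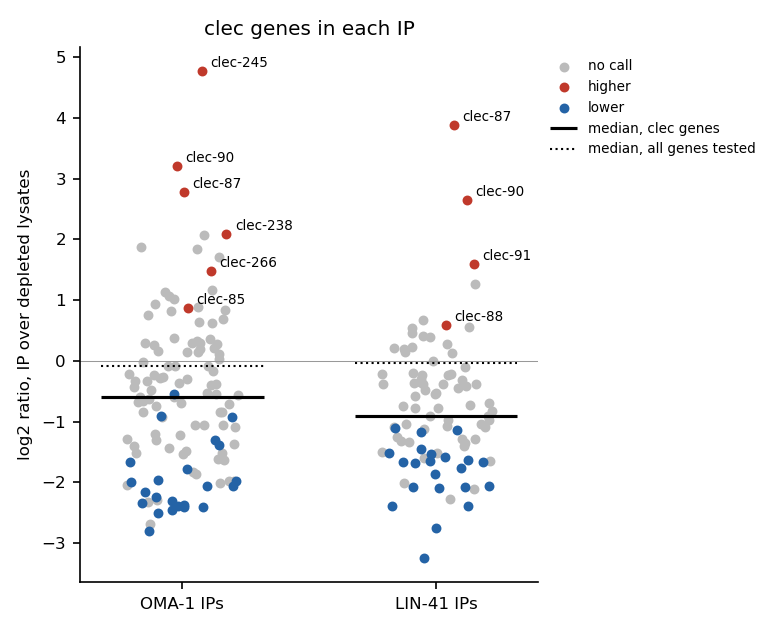
Deposited log2 ratio of each IP over the depleted lysates for the clec genes tested, 118 with OMA-1 and 90 with LIN-41, 1 point per gene with horizontal jitter; red marks genes called higher, blue genes called lower by the approximate test and grey genes with no call. Solid lines are the members' medians (-0.60 and -0.91) and dotted lines the medians of all genes tested (-0.09 and -0.04), and the red points are 6 genes in the OMA-1 panel and 4 in the other.

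The next question was which members came down with LIN-41. The authors' deposited table called 4 of 90 members tested higher, against a background of 27.2% of all genes tested, and the approximate test called 22 lower, against a background of 14%. The members' median log2 ratio was -0.91, and that of all genes tested was -0.04. Over the 90 members tested in both, the median was -0.79 for the OMA-1 IPs and -0.91 for those of LIN-41.

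Besides clec-87 and clec-90, the LIN-41 calls were clec-91 and clec-88. The pooled level of clec-91 (WBGene00014117, I 9126140 to 9127101) was 137 FPKM in the lysates, 71.8 FPKM with OMA-1 and 416 FPKM with LIN-41. The authors' deposited table listed its log2 ratio as 1.60 with LIN-41 (adjusted p 3.45e-42) and -0.93 with OMA-1, and for OMA-1 the approximate test called it lower (adjusted p 1.5e-14). It was thus the only member called higher with LIN-41 and lower with OMA-1. For clec-88 (WBGene00019606, II 6365722 to 6367002) the level was 249 FPKM in the lysates, 244.8 FPKM with OMA-1 and 376 FPKM with LIN-41. Its log2 ratio with LIN-41 was 0.59 in the authors' deposited table (adjusted p 1.33e-09), and it turned negative under both other scalings, -0.36 with equal totals and -0.37 with quantile normalization.

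Of the 90 members tested in both, 16 were lower in both IPs (17.8%, against a background of 10.1%) and 29 in at least one (32.2%, against 25.1%). Among the 14 members at 10 FPKM or more in the lysates, 8 were lower with OMA-1, where the background for that level was 32.7% of genes, and 9 with LIN-41, where it was 26.2%. Among the 30 from 1 to under 10 FPKM, 13 were lower with each protein (43.3%), against backgrounds of 20.4% (OMA-1) and 8.93% (LIN-41). Under 1 FPKM 2 of 74 tested were lower with OMA-1 and 0 of 46 with LIN-41, against backgrounds of 1.57% and 0.283%. At that level the median SE used for the tests was 1.21 on the log2 scale, so small changes were not detectable at this depth. In all, 89 of the 124 members had no call in either direction in either IP, 6 of them untested with OMA-1 and 34 untested with LIN-41 because the table gave no adjusted p.

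A run of neighbours on chromosome II was low throughout. The genes clec-62, clec-63, clec-65 and clec-66 lie between 12893062 and 12906644, and all 4 were lower with OMA-1, while 3 were lower with LIN-41. The level of clec-63 was 299 FPKM in the lysates, 71.4 FPKM with OMA-1 and 103 FPKM with LIN-41. Its log2 ratios in the authors' deposited table were -2.06 and -1.53, both lower by the approximate test (adjusted p 6.7e-49 and 2.56e-24). Over the 4 genes the log2 ratio in the authors' deposited table ran from -2.34 to -1.38 with OMA-1 and from -1.65 to -1.51 with LIN-41.

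Further abundant members were lower in both IPs as well. The level of clec-1 was 41.5 FPKM in the lysates, 8.24 FPKM with OMA-1 and 18.3 FPKM with LIN-41. For clec-150 the levels were 33.0, 10.3 and 10.3 FPKM, and for clec-65 they were 51.3, 19.6 and 16.3 FPKM. Among members with a baseMean of at least 50, the lowest OMA-1 log2 ratios in the authors' deposited table were those of clec-62 (-2.34), clec-1 (-2.31), clec-67 (-2.24), clec-223 (-2.07), clec-63 (-2.06) and clec-160 (-1.97). With LIN-41 they were those of clec-85 (-2.38), clec-49 (-2.06), clec-160 (-1.87), clec-50 (-1.76), clec-186 (-1.69) and clec-150 (-1.67) in the authors' deposited table. All 12 of these values were lower by the approximate test.

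Of the members known from other work, clec-85 is described above, and the others were lower in the IPs or scarce in the lysates. The level of clec-67, a target of the p38 immune pathway in infected intestines, was 6.73 FPKM in the lysates, 1.39 FPKM with OMA-1 and 2.09 FPKM with LIN-41. It was lower in both IPs by the approximate test (adjusted p 2.61e-07 and 0.000972). For clec-60, induced by bacterial infection in other work, the levels were 0.76, 0.48 and 0.57 FPKM, and neither ratio was called. Axon growth gene clec-38 stood at 0.07 and 0.04 FPKM in the lysates and the OMA-1 IPs and was listed at 0 with LIN-41. No row was found for clec-61.

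Most intestine markers were lower in both IPs. Among the 14 lectin genes at 10 FPKM or more in the lysates, 8 were lower with OMA-1 and 9 with LIN-41, not all the same genes. Of 10 intestine markers 0 were called higher in either IP in the authors' deposited table, and the approximate test called 8 lower in each, with median log2 ratios of -1.997 (OMA-1) and -1.56 (LIN-41). Their summed level was 4305 FPKM in the lysates, 979 FPKM with OMA-1 and 1320 FPKM with LIN-41, and none was at 0 in any pool. Of 10 germ line and oocyte markers 8 were called higher with OMA-1 and 9 with LIN-41 in the authors' deposited table, and their summed level was 4177, 19140 and 16304 FPKM. Not called higher with OMA-1 were pgl-1 and glh-1 (log2 ratios -0.10 and -0.24). With LIN-41 glh-1 was at -0.58 and lower by the approximate test (adjusted p 0.000231). The list holds oma-1, which the transgene tnIs17 also carries. With OMA-1 the intestine markers elt-7 and elt-2 had positive log2 ratios (1.25 and 0.09), without a call. Of 5 body wall muscle markers 4 were lower with OMA-1 and 5 with LIN-41 by the approximate test. These counts were 2 and 1 of 5 for hypodermis markers and 2 and 0 of 4 for pharynx markers. The part of any of these tissues in the lectins' values was not tested.

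Whether the proteins held different lectin mRNAs was asked with the difference of the log2 ratios, OMA-1 minus LIN-41, in which the shared lysates cancel. The SE of the difference combined the SEs of both ratios as if independent. It still counts the error of the shared lysates and may be too wide. The difference compares IPs from different strains, so a difference of the strains and one of the IPs cannot be told apart. The approximate two-sided test called 9 of 90 members higher with OMA-1, against a background of 19.6%, and 5 higher with LIN-41, against a background of 12.3%. The difference was above 0 in 45 of the 90. By the same test 1 of 10 intestine markers was higher with OMA-1 and 3 were higher with LIN-41, and 4 of 5 body wall muscle markers were higher with OMA-1. Higher with LIN-41 were 2 of 5 hypodermis, 2 of 4 pharynx and 2 of 5 neuron markers, and 0 of these 3 lists were higher with OMA-1. The part of these tissues in the lectins' differences was not tested.

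Highest with OMA-1 was clec-245, whose difference was 5.06 ± 0.882 (approximate SE; adjusted p 6.7e-08). Its LIN-41 level of 0.25 FPKM lay near the lysate value, so the OMA-1 IPs were the one pool in which this RNA was plentiful. The difference was 4.68 with equal totals and 4.87 with quantile normalization. Of its neighbours in the same stretch of chromosome V, 18186063 to 18194168, clec-246 had no call and clec-42 was not tested for the difference. The levels of clec-246 were 0.18 FPKM in the lysates, 1.01 FPKM with OMA-1 and 0.10 FPKM with LIN-41.

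The level of clec-85 was 39.8 FPKM in the lysates, 73.0 FPKM with OMA-1 and 7.51 FPKM with LIN-41. Its difference was 3.25 ± 0.295 (approximate SE; adjusted p 4.67e-27), and the approximate test called it lower with LIN-41 (adjusted p 1.13e-28). Here 397 of 1434 exon bases overlap Y54G2A.40 on the same strand, which stood at 0.51, 0.58 and 0.47 FPKM in the same pools. In the same run of neighbours on chromosome IV, clec-83 went from 6.31 FPKM in the lysates to 8.15 FPKM with OMA-1 and 2.82 FPKM with LIN-41, a difference of 1.51 ± 0.443 (adjusted p 0.00269 by the approximate test). Between them lies clec-84, named here for its place, at 13.2 FPKM in the lysates, 10.6 FPKM with OMA-1 and 8.77 FPKM with LIN-41, and its difference did not pass.

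A further 5 members, clec-41, clec-49, clec-50, clec-57 and clec-186, lay below the lysate level with LIN-41 and nearer to it, or above it, with OMA-1. The levels of clec-41 were 80.9 FPKM in the lysates, 55.1 FPKM with OMA-1 and 29.2 FPKM with LIN-41, a difference of 0.90 ± 0.22 (adjusted p 0.000206 by the approximate test). For the adjacent genes clec-50 and clec-49 on chromosome V the differences were 0.85 ± 0.242 (adjusted p 0.00187 by the approximate test) and 1.78 ± 0.60 (adjusted p 0.01147). Differences of 1.42 for clec-186 and 1.92 for clec-57 had adjusted p-values of 0.0172 and 0.0367 by the approximate test. With equal totals clec-41, clec-49, clec-50, clec-57 and clec-186 lost the call, and with quantile normalization clec-57 and clec-186 did. For clec-41 the authors' deposited table listed -2.11 on the log2 scale in the earlier OMA-1 IP and -0.55 in the present ones. These values were -1.57 and -0.91 for clec-50, whose LIN-41 log2 ratio was -1.76. They were -0.41 and -0.29 for clec-49, -0.65 and -0.27 for clec-186, and 0.97 and 0.89 for clec-57. For clec-266, above the lysate level in both IPs, the difference was 1.25 ± 0.274.

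On the LIN-41 side clec-91 led with a difference of -2.53 ± 0.164 (adjusted p 6.67e-52 by the approximate test). It was followed by clec-1 (-1.14 ± 0.420), clec-87 (-1.11 ± 0.152), clec-88 (-0.62 ± 0.135) and clec-63 (-0.53 ± 0.20). The difference of clec-87 shrank to -0.23 with quantile normalization and was no longer called, while it was -1.49 with equal totals. For clec-90 the difference was 0.57, with a 95% interval from 0.0607 to 1.08 and an adjusted p of 0.082 by the approximate test. For clec-150 the interval ran from -0.74 to 0.75.

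**Figure D3:**
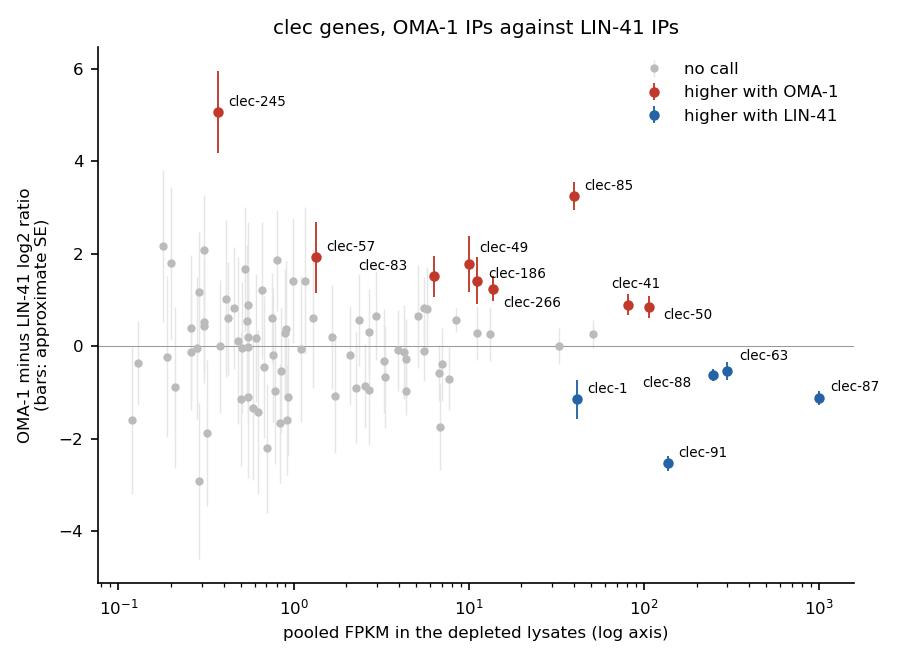
OMA-1 minus LIN-41 log2 ratio of the 90 clec genes tested in both IPs against their pooled lysate FPKM (log axis); bars are 1 approximate SE, red marks 9 genes higher with OMA-1 and blue 5 higher with LIN-41. The bars widen towards low lysate levels, and clec-245 (5.06) and clec-85 (3.25) lie highest among the called genes while clec-91 (-2.53) lies lowest.

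Bias between gonad types was read from another study's comparison of dissected gonads. The authors' deposited table gave it as a log2 ratio of spermatogenic over oogenic gonads for 105 members. It called 7 of these oogenic, against a background of 28.2% of all genes, and 30 spermatogenic (28.6%), near the background of 27.6%. The median gonad log2 ratio of the members was 1.117, and that of all genes was 0.12, both from the authors' deposited table. The gonad data do not share libraries with the IPs as far as the labels say. A call in this comparison does not by itself place a gene in germ cells. Called spermatogenic were also 3 of 10 intestine, 4 of 5 body wall muscle and 4 of 5 hypodermis markers. So were 3 of 3 coelomocyte and 4 of 4 gonad sheath and spermatheca markers, but 0 of 4 pharynx markers.

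All 4 LIN-41 calls but clec-90 fell among the 7 oogenic members, and so did 3 of the 6 OMA-1 calls. Their gonad log2 ratios in the authors' deposited table were -7.59 for clec-266, -4.04 for clec-87, -3.56 for clec-238, -3.27 for clec-91 and -2.93 for clec-88. The other oogenic members were clec-12 and clec-196, both -2.87 in the authors' deposited table, and neither was called higher in an IP. Of the 7 oogenic members 3 were thus called higher with each protein, against 28.4% (OMA-1) and 27.2% (LIN-41) of all genes tested. The share among all oogenic genes was not worked out, so whether 3 of 7 is usual for oogenic genes is unknown. Levels of clec-12 were 2.57 FPKM in the lysates, 1.19 FPKM with OMA-1 and 2.21 FPKM with LIN-41. For clec-90 the gonad log2 ratio was -0.36 and for clec-245 it was -1.73 in the authors' deposited table, with adjusted p-values of 0.101 and 0.495, so neither was called oogenic. The median lysate level was 13.7 FPKM for the oogenic members and 0.68 FPKM for the spermatogenic ones.

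The 30 spermatogenic members ranged from 0.09 to 39.8 FPKM in the lysates, and those with the highest gonad ratios were all scarce. The 7 with a gonad log2 ratio above 8, clec-73, clec-119, clec-123, clec-151, clec-152, clec-153 and clec-154, had gonad log2 ratios between 8.92 and 9.82 in the authors' deposited table. Their pooled levels lay between 0.09 and 0.61 FPKM in the lysates, between 0 and 0.47 FPKM with OMA-1 and between 0.09 and 0.41 FPKM with LIN-41. None was called in either IP, but clec-73 was tested in neither and clec-123 only with OMA-1. Of these, clec-151 to clec-154 lie side by side on chromosome III between 4628465 and 4640562. Over all 420 genes with a gonad log2 ratio above 8, the median lysate level was 0.18 FPKM. Among the 30 spermatogenic members 1, clec-85 (gonad log2 ratio 2.01 in the authors' deposited table), was called higher with OMA-1. No spermatogenic member was called higher with LIN-41. The backgrounds for higher calls were 28.4% (OMA-1) and 27.2% (LIN-41) of all genes tested. Of the spermatogenic members tested, the approximate test called 6 of 29 lower with OMA-1 and 4 of 25 with LIN-41. These counts are near the backgrounds of 18.8% and 14% of all genes tested.

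**Figure D4:**
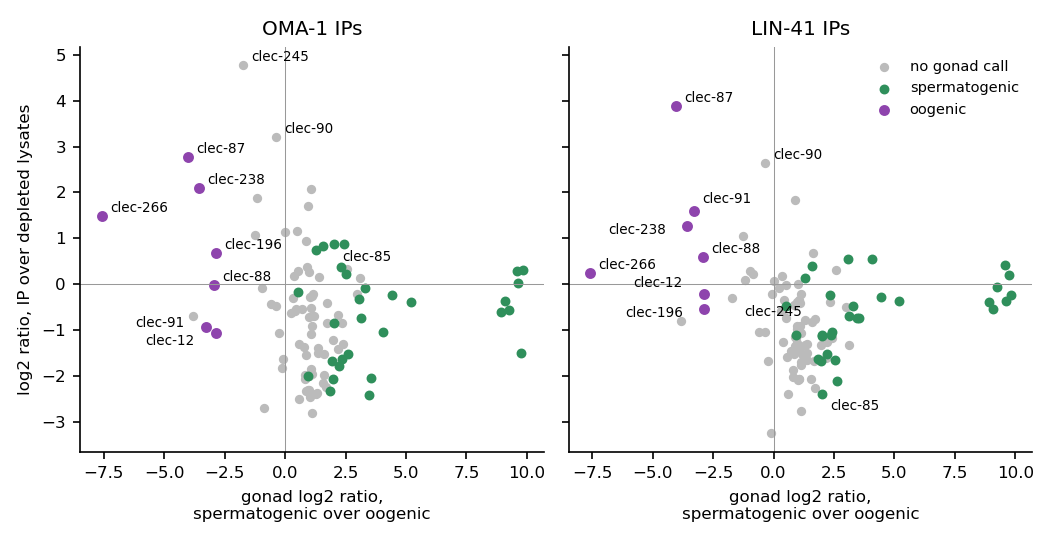
Deposited log2 ratio of each IP over the depleted lysates against the gonad log2 ratio of another study (negative: oogenic) for the 105 clec genes with a gonad value; purple marks 7 oogenic, green 30 spermatogenic and grey all other members. The oogenic points include clec-87 and clec-91, and the 7 green points furthest right, between 8.92 and 9.82, include no called gene.

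Other genes of lectins and immunity were set beside the clec genes. Over all genes tested, the backgrounds were 28.4% (OMA-1) and 27.2% (LIN-41) for higher calls and 18.8% and 14% for lower ones. Lower calls were more frequent at higher lysate levels over all genes. The median lysate level was 24.6 FPKM for galectins and 7.2 FPKM for the immune effectors, against 0.56 FPKM for clec genes. Galectins, the second family of animal lectins, were called higher in 2 of 12 with OMA-1 and 2 of 12 with LIN-41 in the authors' deposited table, and lower in 8 and 5 by the approximate test. Of them lec-1, a broadly expressed galectin gene, stood at 81.5 FPKM in the lysates, 312 FPKM with OMA-1 and 155 FPKM with LIN-41 in the authors' deposited table. Lysozymes, saposins and other immune effectors were called higher in 3 of 28 with OMA-1 and 0 of 27 with LIN-41 in the authors' deposited table, and lower in 13 with each by the approximate test. The 3 with OMA-1 were nlp-29 (log2 ratio 2.399), ilys-4 (1.69) and cnc-3 (1.25) in the authors' deposited table, of which nlp-29 and cnc-3 encode antimicrobial peptides of the epidermis. The shift of -1.33 with equal totals would take cnc-3 below 0.

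A list drawn up around p38 immune signalling, which controls many of these effectors, also held zip-2, hlh-30, elt-2 and rack-1. Of its 16 genes 9 were called higher with OMA-1 and 11 with LIN-41 in the authors' deposited table, against backgrounds of 28.4% and 27.2%. The gonad comparison called 10 of the 16 oogenic, against 0 of 12 galectins and 1 of 27 effectors. Median baseMean was 675 for this list, 205 for galectins, 34.9 for effectors and 7.32 for clec genes. The part of these differences in the calls was not tested. The approximate test called dkf-2 and rack-1 lower with OMA-1 and rack-1 alone lower with LIN-41, and rack-1 had the highest lysate level of the list (600.1 FPKM). The TIR-domain adaptor gene tir-1 had the highest OMA-1 log2 ratio of that list, 4.12 in the authors' deposited table, with 4.85 FPKM in the lysates and 84.9 FPKM with OMA-1. The median log2 ratios with OMA-1 were -1.72 for the galectins, -1.58 for the effectors and 1.21 for the p38 list, beside -0.60 for the lectins. With LIN-41 they were -0.97, -0.99 and 0.82, beside -0.91.

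**Figure D5:**
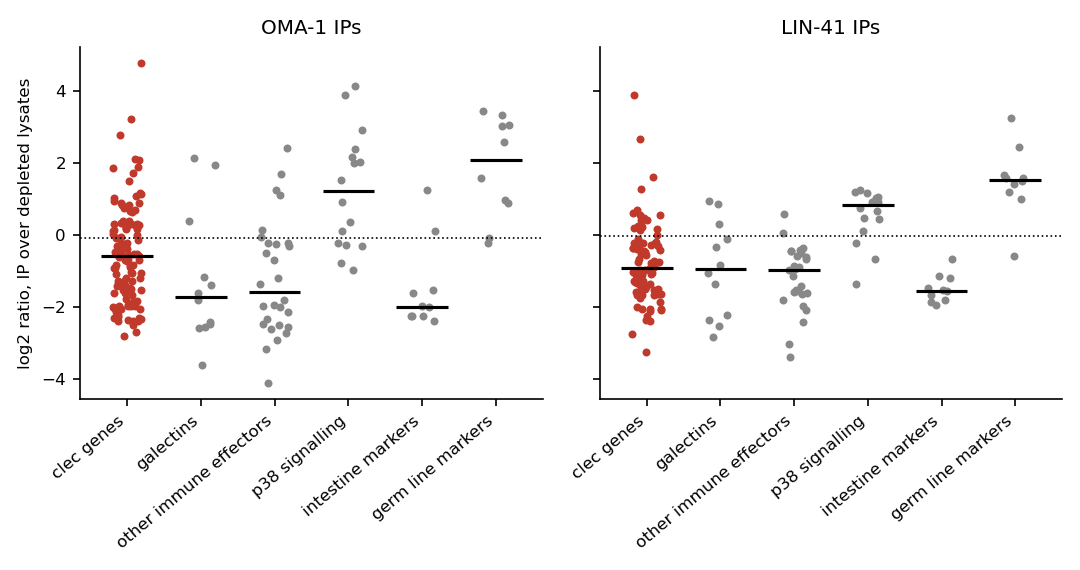
Deposited log2 ratio of each IP over the depleted lysates for the clec genes (red) and for galectins, other immune effectors, p38 signalling genes, intestine markers and germ line markers (grey), 1 point per gene tested; bars are list medians and the dotted line is the median of all genes tested. The clec genes spread from -2.81 to 4.77 with OMA-1 and from -3.25 to 3.89 with LIN-41, and their medians (-0.60 and -0.91) lie between those of the intestine markers (-1.997 and -1.56) and of the germ line markers (2.07 and 1.53).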

How the data were processed

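RNA was sequenced from IPs and lysates grouped by title and genotype. Tools listed in the submitters' processing notes are DESeq2 1.12.3, STAR 2.4.2a, Trimmomatic 0.32 and SAMtools 1.0, with WBcel235 as build; which counter, gene models and strandedness were used is not given in the sources used here. Per the file headers, the authors deposited log2 ratios, Benjamini-Hochberg adjusted p-values, pooled FPKM values and baseMean, a mean read signal over samples. All 8208 genes tested with OMA-1 and 7187 with LIN-41 at a ratio of 0 or below had an adjusted p of 1, so the deposited test looked for enrichment only. The authors' flag for multimapping reads was set for 69 genes and 0 members. The table's other 4 columns, per-sample values of further studies, were left out. Separate cultures for the 2 IPs of a protein are not stated in the labels, so p-values may measure technical spread.

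From these, adjusted p-values were turned back into one-sided raw p-values and z, and the log2 ratio over z gave an SE; a gene without one took that of the other IP or the 95th percentile of the 201 genes nearest in baseMean, as for 22 of the 23 members lower with OMA-1 and 20 of the 22 lower with LIN-41. Normal tests for lower values and for the difference were adjusted over all genes and tested on simulated data. Genes were matched by ID to Ensembl release 115 (WBcel235), and neighbours within 10 kb formed runs. Members, lists and tests were chosen with earlier results of these data known. The 29 members named were those called higher, those that differed between IPs, the 10 most abundant, the 6 lowest in each IP with a baseMean of at least 50, the 5 furthest in each direction of the gonad comparison, clec-245 and members of known role; clec-12, clec-42, clec-66, clec-84, clec-119, clec-154, clec-196 and clec-246 were added as neighbours or to complete a short list, after their values were seen. Python 3.11.15, NumPy 2.4.6, pandas 2.3.3, SciPy 1.17.1 and Matplotlib 3.10.9 were used.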

Additional observations from a re-analysis of the deposited data

Results flagged for a closer look

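The log2 ratio to the lysates differed between the IPs for 14 of 90 clec genes by the approximate test of the difference, OMA-1 minus LIN-41. It was 5.06 for clec-245, 3.25 for clec-85, 1.92 for clec-57, 1.78 for clec-49, 1.51 for clec-83, 1.42 for clec-186, 1.25 for clec-266, 0.90 for clec-41 and 0.85 for clec-50. It was -2.53 for clec-91, -1.14 for clec-1, -1.11 for clec-87, -0.62 for clec-88 and -0.53 for clec-63. The error of clec-245, clec-85, clec-57 and clec-83 with LIN-41 was taken from the OMA-1 comparison, and that of clec-91 and clec-88 with OMA-1 from the LIN-41 comparison. For clec-1, clec-41, clec-49, clec-50, clec-63 and clec-186 both errors were taken from other genes near in baseMean. Of the 14, clec-85 and clec-91 had deposited ratios of opposite sign in the IPs with a call in each direction.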

How the results depend on the processing

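No paired analysis was possible because the table gives pooled values only, with no value per replicate; leaving out replicates and using each strain's own lysate could not be run for the same reason. With equal totals, 3 clec genes were called higher with OMA-1, 61 were lower with OMA-1, 46 were lower with LIN-41, and 4 were higher with OMA-1 than with LIN-41. The lower calls made up 51.7% and 51.1% of the members tested, against 52.0% and 46.4% of all genes under the same scaling. Of the 5 higher with LIN-41 than with OMA-1, 3 passed at an adjusted p below 0.01 and 3 at a minimum change of 2-fold. Restricting the difference test to genes with an SE of their own in both comparisons left 1 gene in each direction, because it drops every gene with a ratio at or below 0. The OMA-1 and LIN-41 medians were -1.93 and -1.87 with equal totals, -0.46 and -0.65 with quantile normalization, -1.30 and -1.28 at a baseMean of at least 10, and -0.20 and -0.35 from FPKM with a pseudocount of 1; the members' median stayed below that of all genes tested in each of these. Among the named genes, ratios that changed sign with equal totals and had a call under either scaling were those of clec-266 with LIN-41 (-0.72), clec-83 with OMA-1 (-0.97), clec-85 with OMA-1 (-0.47) and clec-88 with LIN-41 (-0.36), the last also with quantile normalization (-0.37). An SE predicted from scaled reads, added after the data were seen, gave 24 genes lower with OMA-1 and 24 with LIN-41, sharing 21 and 21 with the calls above. Low read numbers limit members under 1 FPKM.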

Other observations

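The clec genes were unevenly spread over the chromosomes: 40 of the 124 lay on V and 33 on IV, against 3 on X, which carried 14.3% of all genes in the table. In all, 69 members lay in 22 runs of neighbours within 10 kb, the largest with 9 genes on V. None of those 9 was called in either IP, but they lay between 0.04 and 0.78 FPKM in the lysates. Not all of them were tested with LIN-41. Under 1 FPKM the approximate test called only 1.57% (OMA-1) and 0.283% (LIN-41) of all genes tested lower.

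Several scarce members had high OMA-1 log2 ratios in the authors' deposited table that did not pass its test: 2.07 for clec-99 (0.05 FPKM in the lysates, 0.64 FPKM with OMA-1, listed at 0 with LIN-41), 1.85 for clec-246 and 1.71 for clec-74 (0.31, 1.17 and 0.22 FPKM), with adjusted p-values of 0.188, 0.177 and 0.0722. With quantile normalization clec-74 and clec-99, with baseMean values of 7.90 and 1.61, gained a call with OMA-1, as did clec-161. Under that scaling clec-85 lost its call, and 8 members were called higher with OMA-1. These scarce members were chosen after their values were seen.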
